A study of Mus musculus with 4 samples.

Results

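The clustered replication-dependent histone genes were examined in RNA libraries from 4 mouse mammary tumours. A gene was a member if the GENCODE M21 annotation of build GRCm38 lists it as protein coding with a symbol that starts with Hist1h, Hist2h, Hist3h or Hist4h. The annotation holds 67 such genes, and 65 of them were among the 51826 rows of the count table. Hist1h2bh and Hist1h2bm were not analysed here. The 65 members comprised 6 genes for the linker histone H1, 18 for H2A, 16 for H2B, 12 for H3 and 13 for H4. By position, 52 lay in the Hist1 cluster on chromosome 13, 10 in Hist2 on chromosome 3, 2 in Hist3 on chromosome 11 and 1, Hist4h4, on chromosome 6.

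The study compared C3-T+ tumours with 2 intact copies of Elf5 (Elf5+/+, written WT) with C3-T+ tumours that carry 1 intact copy (Elf5+/-, written HET), with 2 libraries of each genotype. Elf5 is an ETS-family transcription factor of luminal progenitors and milk-producing alveolar cells in the mammary gland. All 4 tumours shared the C3-T transgene, whose promoter the labels do not name, the digestion with collagenase and hyaluronidase, and a sort with antibodies to CD45, CD31 and TER119, which mark leukocytes, endothelial and erythroid cells. Libraries were made from total RNA. No age or strain was given in the labels. Both HET titles carry the number 3211, with T1 and T2, while the WT titles carry 3210 and 4972. The HET libraries may thus be 2 tumours of 1 animal, and the labels do not say so either way. P-values therefore measure only the spread between these samples.

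Total counts lay between 12695132 and 15307939 per library. Levels of single genes are TMM-scaled CPM (counts divided by a library size corrected for composition). Where 4 values are given, WT 1 comes first, then the library labelled WT 2, then HET 1 and finally HET 2. Elf5 stood at 35.5, 4.68, 5.36 and 10.6 CPM, so it was lower in the library labelled WT 2 than in both HET libraries (log2 fold change of HET over WT -1.33 ± 0.92, SE; edgeR adjusted p = 0.986). Without WT 1 this log2 fold change was 0.76. A count over all exons does not show whether an allele is missing, and every direction of HET over WT rests on the labels. The library labelled WT 2 stood apart in other ways. In it 44.5% of rows had no count, against 29.9% to 31.3% in the others, and its summed level of 12 macrophage markers was 160.1 CPM, against 1502 to 3866. Its 10 fibroblast markers summed to 23530 CPM, against 4615 to 7612. The 9 mammary epithelial markers were detected in all 4 libraries and summed to 3712, 3319, 2511 and 2323 CPM, with both HET libraries below both WT libraries, also when scaled to total counts (3563, 3057, 2664 and 2477). Epcam was the largest part, at 1036, 1282, 765 and 611 CPM. For single markers, both HET libraries lay below both WT libraries in 2 and above in 1, Krt19. Over all genes tested these shares were 15.9% and 19.6%. The part of these markers in the histone values was not tested.

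Replication-dependent histone genes supply the proteins that package newly copied DNA, and their transcripts accumulate in S phase and are degraded at its end. H2A, H2B, H3 and H4 form the core of the nucleosome, and H1 binds the linker DNA between nucleosomes. Unlike other messenger RNAs, these transcripts usually lack introns and a poly(A) tail. They end just after a conserved stem-loop, which is bound by the stem-loop binding protein Slbp and cut with the help of U7 small nuclear RNA. A protocol that selects poly(A) RNA would miss most of them. The labels name total RNA as input and do not say how ribosomal RNA was handled.

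The stem-loop is shown because it defines this way of ending a transcript. A stem of 6 bases (GG, then 3 pyrimidines and T), a loop of any 4 bases and the stem's reverse complement were searched in whole annotated transcripts. The search was not limited to the bases after the stop codon. A match was held by 44 of 65 members (67.7%), against 154 of 21951 protein-coding genes (0.702%), members included. Of the 21 members without a match, 15 have gene models with fewer than 16 bases after the stop codon. The 44 matches fell into 8 distinct sequences, in which capitals mark the loop. The most frequent form was in 24 members, none of them an H4 gene, the next was in 7 members, all H4 genes, and a form with another last loop base was in 6 members of H1, H2B and H3. Hist1h4a, Hist1h3g and Hist2h2ac each carried a form found in no other member.
Form of 24 members, as in Hist2h2aa1: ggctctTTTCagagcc
Form of 7 H4 members, as in Hist1h4d: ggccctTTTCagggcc
Form of 6 members, as in Hist1h3c: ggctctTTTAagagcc
Form of Hist1h4a: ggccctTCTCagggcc
After the match, 21 of these members have at most 60 annotated bases, from 3 in Hist1h2ap and Hist1h4m to 57 in Hist2h2ac. Another 17 have more than 300 bases after it, among them Hist1h1d, Hist1h1e and Hist1h1c, with 4884, 1153 and 840. Reads beyond the stem-loop count towards these genes too, and whether such reads came from read-through or polyadenylated transcripts was not tested.

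Promoters also differed by class. RefSeq promoters (GRCm38.p6) were matched for 60 of 65 members, and the 250 bases before each start were searched on both strands for 4 motifs. CCAAT was found in 81.7% of members and in 33.8% of all 32851 promoters, including all 6 H1, all 18 H2A and all 14 H2B promoters, 8 of 10 H3 promoters and 3 of 12 H4 promoters. ATTTGCAT, the octamer bound by Oct-1 (Pou2f1), was found in 7 H2A and 5 H2B promoters and in no other class (20% of members, 1.6% of all promoters). GGTCCG, the end of the H4 subtype-specific element, was found in 9 of 12 H4 promoters and 1 H3 promoter (16.7% of members, 6.72% of all promoters). TATAAA was found in 48.3% of members and 12.4% of all promoters. H2A and H2B genes that lie back to back share much of the stretch searched, so the same match can be counted in both classes. Hist1h2ag and Hist1h2bj, for example, were searched at chr13:22042950-22043199 and chr13:22042948-22043197. A match is a description of these letters and not a binding site. None of the matches marked in the promoters shown overlap.

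The following promoters belong to members whose values are described further on, and capitals mark the motifs in them. The first lies between the divergent genes Hist1h2ai and Hist1h2bl, at chr13:21716184-21716411 on the plus strand, and holds CCAAT at 143, 107, 99 and 88 bases before the Hist1h2ai start. The second, of Hist1h2bk at chr13:22035644-22035820 on the plus strand, holds CCAAT at 160, 132 and 96 bases and the octamer at 30 bases before the start. Bases that a neighbouring gene transcribes are left out of the first and second stretch, and the TATAAA match of the Hist1h2bk promoter lies in the bases left out. The third, of Hist1h4k at chr13:21750554-21750803 on the minus strand, holds GGTCCG at 32 and TATAAA at 16 bases before the start.
Hist1h2ai: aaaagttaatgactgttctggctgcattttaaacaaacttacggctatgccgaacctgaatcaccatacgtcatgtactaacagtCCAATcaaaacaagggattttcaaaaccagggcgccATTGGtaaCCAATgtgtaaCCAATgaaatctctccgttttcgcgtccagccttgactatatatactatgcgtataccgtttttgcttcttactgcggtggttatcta
Hist1h2bk: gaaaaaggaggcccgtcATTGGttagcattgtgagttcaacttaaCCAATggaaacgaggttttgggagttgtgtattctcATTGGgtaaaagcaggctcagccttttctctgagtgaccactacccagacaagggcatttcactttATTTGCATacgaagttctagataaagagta
Hist1h4k: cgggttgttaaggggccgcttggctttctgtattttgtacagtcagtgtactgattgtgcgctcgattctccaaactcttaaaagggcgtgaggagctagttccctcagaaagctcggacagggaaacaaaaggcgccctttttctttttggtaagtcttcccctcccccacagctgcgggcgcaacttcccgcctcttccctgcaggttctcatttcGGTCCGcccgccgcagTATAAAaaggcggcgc

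The 65 members held 61837, 67809, 57896 and 61217 counts, which is 0.470%, 0.443%, 0.397% and 0.482% of the libraries (95% Wilson intervals 0.466 to 0.474, 0.440 to 0.446, 0.394 to 0.400 and 0.478 to 0.486, which cover counting error only). The highest and the lowest share were both in HET libraries. On the TMM scale the members summed to 4898, 4809, 3742 and 4524 CPM, so both WT libraries lay above both HET libraries. The log2 ratio of the HET mean (4133 ± 553, SD, n = 2) to the WT mean (4853 ± 63.1) was -0.23. It was -0.055 when scaled to total counts, -0.25 without the library labelled WT 2 and -0.44 without HET 2. The scaling matters here because total counts place the median of all genes tested at 0.22 and TMM at 0.04. With 2 libraries per genotype, no exact permutation test (two-sided) of 1 value can go below p = 0.33, and none is given for sums over members. In bulk tumour RNA, fewer cycling cells and less histone RNA per cell cannot be told apart.

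**Figure D1:**
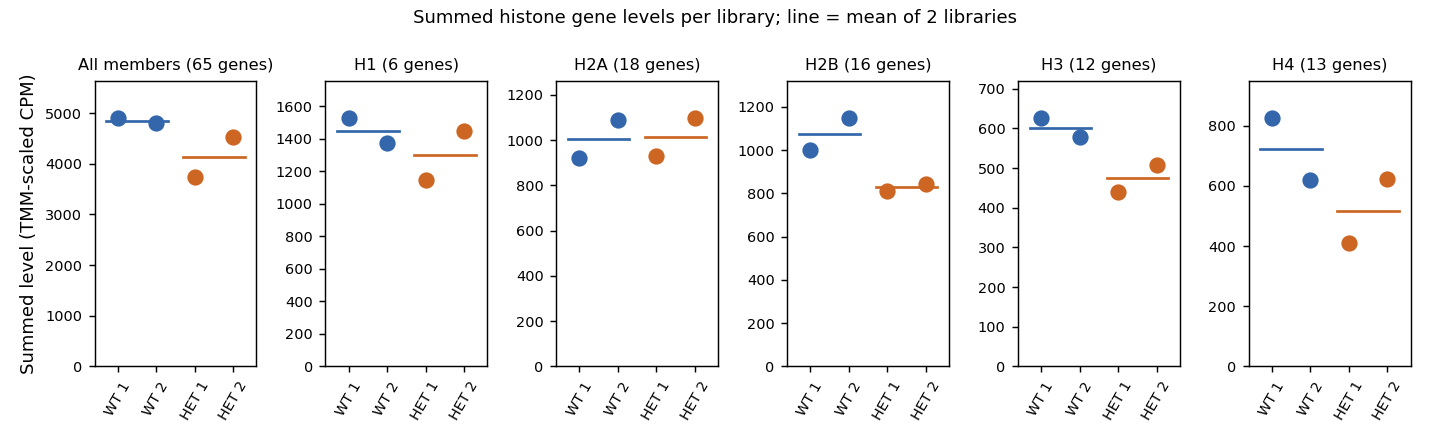
Summed levels of all 65 members and of each histone class in TMM-scaled CPM (vertical axes, starting at 0), with 1 point per library and a line at the mean of the 2 libraries of a genotype. For H2B and H3 both HET points lie below both WT points, whereas for H1, H2A and H4 the genotypes overlap.

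By class, the summed levels of H2B and H3 in either HET library lay below those in either WT library, and those of H1, H2A and H4 overlapped between genotypes. H2B summed to 999, 1148, 812 and 844 CPM (log2 ratio of means -0.37, and -0.19 scaled to total counts). In both scalings the HET libraries lay below the WT libraries. H3 summed to 626, 579, 441 and 509 CPM (-0.34, and -0.17 scaled to total counts, where the groups overlapped). H4 summed to 825, 620, 411 and 623 CPM (-0.48). The H4 values were set apart mainly by WT 1, which was high, and HET 1, which was low: the ratio was -0.26 without WT 1, -0.26 without HET 1 and -0.87 without HET 2. H1 summed to 1527, 1374, 1148 and 1451 CPM (-0.16, and 0.018 scaled to total counts). The H1 ratio was -0.051 without HET 1, -0.080 without WT 1 and -0.40 without HET 2. H2A summed to 922, 1088, 930 and 1097 CPM (0.01), and this ratio took either sign, from -0.18 without HET 2 and -0.10 without WT 1 to 0.14 without the library labelled WT 2 and 0.19 when scaled to total counts. Without the library labelled WT 2 the ratios of H1, H2B, H3 and H4 were -0.23, -0.27, -0.40 and -0.67.

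Expressed as a share of the 65 members' own counts, which needs no library scaling but leaves out pseudogene rows, H2A was higher in both HET libraries. It made up 18.8%, 22.6%, 24.8% and 24.2% of member counts. H3 made up 12.8%, 12.0%, 11.8% and 11.2%, with both HET libraries below. The shares of H1 (31.2%, 28.6%, 30.7% and 32.1%), H2B (20.4%, 23.9%, 21.7% and 18.7%) and H4 (16.8%, 12.9%, 10.98% and 13.8%) overlapped between genotypes. The ratio of H2A to H2B counts was 0.923 and 0.948 in WT and 1.14 and 1.30 in HET. This ratio moves with which rows are counted. Adding 2 H2A rows annotated as pseudogenes, Hist1h2aj and Hist1h2al, gave 2.53 and 2.46 in WT and 2.80 and 2.95 in HET. With these rows the H2A counts were 31918, 39782, 35152 and 33686, in place of 11635, 15345, 14383 and 14840. Where they are counted in H2A and in the total, the H2A share overlaps between genotypes. It is then higher in the library labelled WT 2 than in HET 2.

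Gene by gene, no member passed the test between genotypes. Of 65 members, 60 passed the filter on low counts and were tested with all other genes, 21607 in total. The edgeR quasi-likelihood test called 0 members at a Benjamini-Hochberg adjusted p under 0.05, and 0% of all genes tested. DESeq2 and limma-voom also called 0 members, while DESeq2 called 0.62% of all genes. Without WT 1 the edgeR test called 3.01% of all genes and without the library labelled WT 2 0.0417%, in both cases with 0 members. At an unadjusted p under 0.05 there were 7 members (11.7%), 6 of them lower and 1 higher in HET, against 3.78% of all genes (1.83% lower and 1.95% higher). This count was 3 when scaled to total counts, 2 without HET 1 and 2 without HET 2. The log2 fold change was below 0 for 45 of the 60 members (75%) and for 47.3% of all genes. The members' median was -0.38, and the median of all genes was 0.04. Of the 15856 protein-coding genes among those tested, 8390 lay below 0, with a median of -0.035. Scaled to total counts, 38 of 60 members and 7250 of 21607 genes lay below 0, with medians of -0.20 and 0.22.

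The median absolute log2 difference between the WT libraries was 0.258 over members and 0.569 over all genes, and between the HET libraries it was 0.440 over members and 0.389 over all genes (0.5 CPM added). Genes were not matched on level here.

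Both HET libraries lay below both WT libraries for 27 members (45%, against 15.9% of all genes) and above them for 4 (6.67%, against 19.6%). Of the 15856 protein-coding genes tested, they lay below for 2855 and above for 2631. Scaled to total counts, they lay below for 17 members (28.3%, against 8.82%) and above for 12 (20%, against 28.1%). The number of members with a log2 fold change above 0 depended on single libraries. It was 15 in all, 22 without HET 1, 21 without WT 1, 15 without the library labelled WT 2 and 8 without HET 2. HET 1 was the lowest of the 4 libraries for 34 members (56.7%), against 23.2% of all genes, and the highest for 1. Over all genes the library labelled WT 2 was most often the lowest, at 38.3%, against 8.33% of members. Members are not independent, since many share sequence, a promoter or a cluster.

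**Figure D2:**
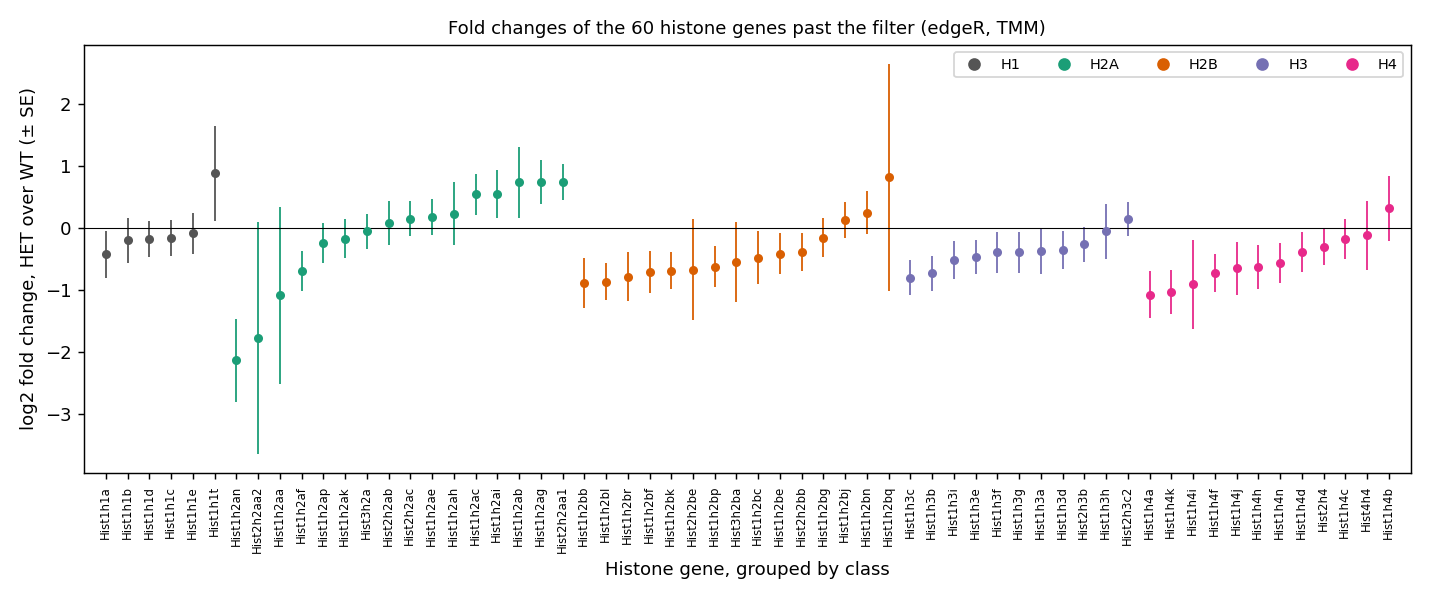
Log2 fold change of HET over WT for each of the 60 tested members (vertical axis, points with SE bars from edgeR), grouped and coloured by histone class and ordered by size within a class (horizontal axis). H3 and H4 points lie below 0 except for Hist2h3c2 and Hist1h4b, and 9 of 16 H2A points lie above 0.

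The 6 H1 genes each encode a different linker histone, and none passed the test. Of the 6, 5 had a log2 fold change below 0 and 1 above 0, with a median of -0.17. Scaled to total counts, 3 of 6 lay below 0 and the median was 0.011. Annotated exon lengths of members run from 312 to 7425 bases, so ranks by level per kb, here and below, depend on the gene models. Per kilobase of exon, Hist1h1e (chromosome 13, 23620629 to 23622558, minus strand) was the most abundant, at 288 CPM per kb on average. It stood at 601, 544, 457 and 622 CPM (log2 fold change -0.09 ± 0.33, SE; edgeR adjusted p = 0.994). Its lowest and highest values were both in HET. Hist1h1d, at 211, 188, 158 and 195 CPM, came to 25.3 CPM per kb on a gene model of 7425 bases. Hist1h1c stood at 349.9, 377, 341 and 313 CPM, and it was the only H1 gene for which both HET libraries lay below both WT libraries (-0.15 ± 0.29). Hist1h1b stood at 185, 134, 106 and 173 CPM, lowest in HET 1.

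Hist1h1a, also among the 4 highest H1 genes per kilobase, stood at 179, 129, 84.2 and 146 CPM (-0.42 ± 0.38). It had been placed in a short list of histone members known best from germ cells, with Hist1h1t, Hist1h2aa and Hist1h2ba, and its level here goes against that label. The other 3 genes of that list had at most 49 counts in a library. Hist1h1t, the testis linker histone, had 10, 33, 34 and 49 counts. Hist1h2aa had 28, 6, 1 and 16 counts, and Hist1h2ba had 10, 4, 4 and 0 counts, where a count of 0 allows up to 0.236 CPM.

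H2A members were divided in direction. Of 16 tested H2A genes, 9 had a log2 fold change above 0 and 7 below, with a median of 0.12 and a range from -2.13 to 0.74 (5 below 0 when scaled to total counts). On the TMM scale, the 4 members for which both HET libraries lay above both WT libraries were H2A genes, namely Hist2h2aa1, Hist1h2ag, Hist1h2ac and Hist2h2ac. Scaled to total counts there were 12 such members, of which 8 were H2A genes and the others Hist1h1t, Hist1h2bj, Hist1h2bn and Hist2h3c2. Hist2h2aa1 (chromosome 3, 96245497 to 96246082, plus strand) stood at 155, 184, 265 and 302 CPM (0.74 ± 0.30, unadjusted p = 0.0453, edgeR adjusted p = 0.986). It was the only member with an unadjusted p under 0.05 in that direction. Hist1h2ag stood at 31.2, 33.5, 39.7 and 68.3 CPM (0.74 ± 0.36). Hist1h2ac, one of the longer H2A transcripts, stood at 28.0, 41.1, 46.1 and 54.8 CPM (0.54 ± 0.32). Hist1h2ab stood at 13.1, 44.3, 42.1 and 53.6 CPM, so that it was low in WT 1 alone.

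Other H2A genes lay lower in HET. Hist1h2an (chromosome 13, 21786826 to 21787218, minus strand) had the smallest p of all members. It stood at 7.84, 8.94, 2.84 and 0.961 CPM, on 99, 126, 44 and 13 counts (-2.13 ± 0.66, unadjusted p = 0.018, edgeR adjusted p = 0.986). Only 11.02% of its 31-base stretches occur in no other annotated gene. Hist1h2af stood at 83.2, 126, 59.9 and 69.2 CPM (-0.69 ± 0.32). Hist1h2ak, at 387 CPM per kb one of the 2 highest H2A genes, stood at 166, 156, 115 and 171 CPM, with overlapping genotypes. Hist3h2a, from the small Hist3 cluster, stood at 70.4, 61.4, 56.4 and 70.6 CPM (-0.05 ± 0.29).

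The value of Hist2h2aa1 cannot be read without its twin. Hist2h2aa1 and Hist2h2aa2 are copies on opposite strands of the Hist2 cluster with the same coding sequence, and neither has a 31-base stretch of its own. Hist2h2aa1 had 1958, 2597, 4102 and 4091 counts, whereas Hist2h2aa2 had 1733, 2943, 1571 and 0. The share of the pair's counts that was assigned to Hist2h2aa1 was thus 53.0%, 46.9%, 72.3% and 100%. The pair's sum was 292, 393, 367 and 302 CPM, with overlapping genotypes and a log2 ratio of -0.03. The value of Hist2h2aa1 was higher in HET where that of its copy was lower. With no filter beyond 1 count, Hist2h2aa2 was the 1 member that edgeR called (-1.90, adjusted p = 0.00178), with 324 genes called in all (0.752%).

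In all, 10 members form 5 pairs with identical coding sequence. In the other 4 pairs nearly all counts were assigned to 1 copy in every library. Hist1h2ap had 693, 934, 648 and 828 counts and Hist1h2ao 29, 0, 0 and 0. Hist1h4n had 1209, 993, 739 and 879 counts and Hist1h4m 0, 23, 0 and 0. Hist2h3c2 had 845, 896, 1023 and 1058 counts and Hist2h3c1 27, 1, 1 and 0. The 5 members that did not pass the filter were Hist1h2ao, Hist1h4m, Hist2h3c1, Hist1h2ad and Hist1h2ba, with at most 29 counts in a library. The pair sums had log2 ratios of -0.26 for Hist1h2ao and Hist1h2ap, -0.57 for Hist1h4m and Hist1h4n, 0.12 for Hist2h3c1 and Hist2h3c2 and -0.74 for Hist1h2bq and Hist1h2br.

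**Figure D3:**
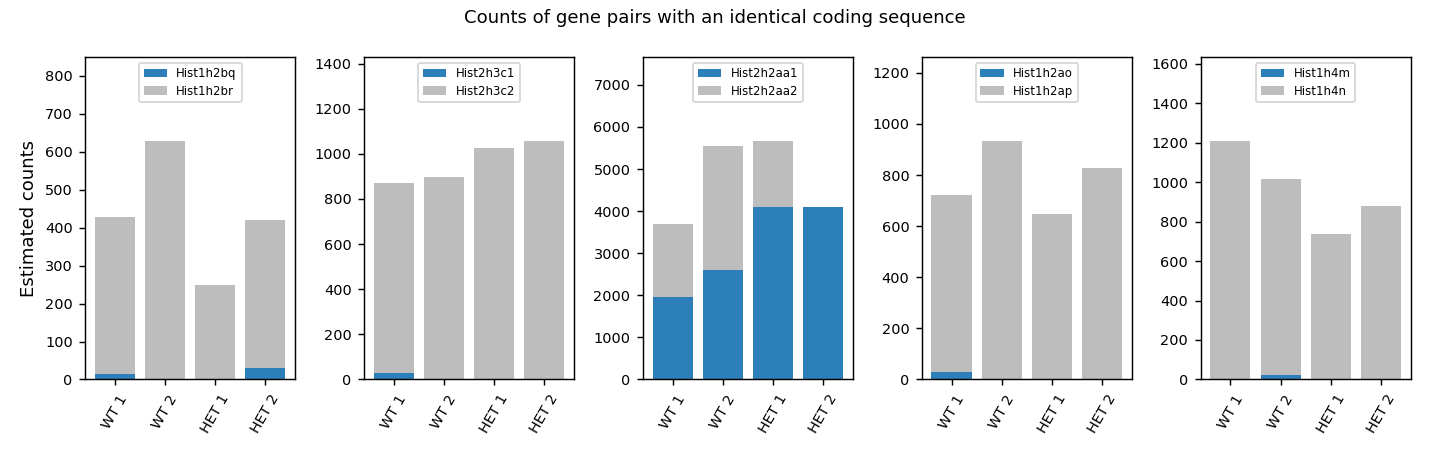
Estimated counts (vertical axes, starting at 0) in each library for the 5 pairs of members with the same coding sequence, stacked by copy. In 4 pairs 1 copy holds nearly all counts in every library, whereas the Hist2h2aa1 share of its pair lies at 53.0% and 46.9% in the WT libraries and at 72.3% and 100% in HET.

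H2B genes lay mostly lower in HET. Of 15 tested H2B genes, 12 had a log2 fold change below 0 and 3 above, with a median of -0.55 (-0.37 scaled to total counts). Both HET libraries lay below both WT libraries for 8 of them, and for 6 when scaled to total counts, against 15.9% and 8.82% of all genes. Hist1h2bl (chromosome 13, 21715763 to 21716143, minus strand) stood at 125, 98.7, 55.9 and 67.2 CPM (-0.86 ± 0.30, unadjusted p = 0.0272, edgeR adjusted p = 0.986). Both HET values lay below both WT values. Hist1h2bb stood at 92.5, 179, 83.6 and 63.3 CPM (-0.89 ± 0.40), and Hist1h2bk, with the octamer in its promoter, at 90.5, 71.2, 47.1 and 53.6 CPM (-0.68 ± 0.29). Hist2h2bb, the most abundant H2B gene per kilobase at 521 CPM per kb, stood at 207, 241, 196 and 149 CPM (-0.38 ± 0.31). Hist1h2bn, the next at 359 CPM per kb, stood at 92.9, 157, 156 and 141 CPM and was lowest in WT 1. Hist1h2bg stood at 144, 162, 115 and 160 CPM. Hist3h2ba, at 5.86, 12.8, 9.05 and 3.69 CPM, spanned a wide range within both genotypes.

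Hist2h2bb and its neighbour Hist2h3b have no 31-base stretch of their own, since all of them also occur in the antisense gene Gm20628, which covers both. Gm20628 itself was given 94.97, 78.2, 46.3 and 68.4 CPM. The strand setting of the counting is not given in the sources used here, so reads of Hist2h2bb and of Hist2h3b cannot be told apart from those of Gm20628 over the same bases. Hist2h2bb and Hist2h3b do not overlap each other. Elsewhere, Hist1h1e overlaps the end of the Hist1h2be gene model on the same strand. Hist1h1e shares 24.5% of its 31-base stretches with it.

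H2A and H2B genes often sit back to back, sharing the stretch between their starts. Among members, 12 such pairs had starts less than 1000 bases apart on opposite strands, and each paired an H2A with an H2B gene. In 9 pairs both genes were tested, and 3 had fold changes of the same sign. The H2B value was the lower one in 7 of the 9. Across the 279 bases between Hist1h2bl and Hist1h2ai, which hold 4 CCAAT matches, Hist1h2bl had a log2 fold change of -0.86 and Hist1h2ai of 0.55. Hist1h2ai stood at 50.1, 47.5, 47.6 and 94.95 CPM, so that its difference lay in HET 2 alone, and it was -0.10 without HET 2. Across the 302 bases between Hist1h2ah and Hist1h2bk the values were 0.23 and -0.68, and across the 251 bases between Hist1h2ac and Hist1h2bc they were 0.54 and -0.48. Hist1h2ah (26.9, 22.6, 15.8 and 42.5 CPM) and Hist1h2bc overlapped between genotypes. The H2A value was the lower one for Hist1h2an and Hist1h2bp (-2.13 and -0.62) and for Hist1h2ak and Hist1h2bn (-0.17 and 0.25). Differences between the members of a pair were not tested.

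H3 genes of the family encode only 2 proteins. Hist1h3a, Hist1h3g, Hist1h3h and Hist1h3i share one, known as H3.1, and the other 8 genes share H3.2. Of 11 tested H3 genes, 10 had a log2 fold change below 0 (9 scaled to total counts). For 9 (5 when scaled to total counts) both HET libraries lay below both WT libraries, against 15.9% and 8.82% of all genes. Hist1h3c (chromosome 13, 23744973 to 23745602, minus strand) stood at 70.4, 78.6, 39.8 and 45.7 CPM (-0.80 ± 0.28, unadjusted p = 0.0285, edgeR adjusted p = 0.986). Hist1h3b, in the same stretch of the Hist1 cluster, stood at 54.0, 50.3, 30.1 and 32.9 CPM (-0.73 ± 0.28, unadjusted p = 0.0396). For both genes the replicates of a genotype lay closer together than the genotypes. Hist2h3b, the most abundant H3 gene per kilobase, stood at 154, 138, 114 and 130 CPM (-0.26 ± 0.28). Hist1h3h stood at 56.2, 36.7, 29.2 and 60.4 CPM, with the lowest and the highest value both in HET, and Hist1h3i at 55.6, 39.5, 34.7 and 31.8 CPM.

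Summed by protein, the H3.2 genes stood at 453, 444, 339 and 363 CPM (log2 ratio of means -0.35), with both HET libraries below both WT libraries in either scaling. The H3.1 genes stood at 172, 135, 102 and 146 CPM (-0.31), with overlapping genotypes. The ratio of H3.2 to H3.1 counts was 2.63, 3.28, 3.33 and 2.49, so it overlapped between genotypes.

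All 13 H4 genes encode the same protein. Of 12 tested H4 genes, 11 had a log2 fold change below 0 and 1, Hist1h4b, above 0, with a median of -0.59 (-0.42 scaled to total counts). Both HET libraries lay below both WT libraries for 6 (3 when scaled to total counts), against 15.9% and 8.82% of all genes. HET 1 was the lowest library for 11 of the 12. Hist1h4k (chromosome 13, 21750194 to 21750505, minus strand) stood at 114, 76.6, 38.5 and 55.1 CPM (-1.03 ± 0.35, unadjusted p = 0.0261, edgeR adjusted p = 0.986). Hist1h4a, like Hist1h3g and Hist2h2ac a gene with a stem-loop form of its own, stood at 31.6, 25.4, 10.7 and 16.4 CPM (-1.07 ± 0.37, unadjusted p = 0.0279). In both genes the WT values lay apart from the HET values. Hist1h4n stood at 95.8, 70.4, 47.8 and 65.0 CPM, Hist1h4d at 185, 138, 104 and 144 CPM and Hist1h4f at 49.7, 46.6, 24.6 and 33.6 CPM. Hist4h4, the member that lies alone on chromosome 6, stood at 144.5, 72.9, 55.3 and 144.9 CPM. Its high and low values thus paired 1 library of each genotype, and its log2 fold change was 0.46 without WT 1, 0.38 without HET 1 and -0.53 without the library labelled WT 2.

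The Hist1 members fall into 4 blocks separated by more than 100 kb. The largest, with 28 members between 23531050 and 23764406, summed to 2527, 2542, 1892 and 2321 CPM (log2 ratio of means -0.27). The first, with 17 members between 21715763 and 21837530, summed to 1085, 981, 719.6 and 983 CPM (-0.28). The 5 members between 22035164 and 22043676 summed to 219, 189, 154 and 237 CPM (-0.06). The Hist2 cluster summed to 843, 949.7, 855 and 763 CPM (-0.15), with overlapping genotypes. HET 1 was the lowest library in these 3 blocks, and HET 2 in the Hist2 cluster.

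How reads were divided between near-identical members sets the limit of all gene-level values. A median of 38.1% of a member's 31-base stretches occurred in no other annotated gene. The class medians were 96.2% for H1, 52.1% for H4, 38.3% for H2B, 36.9% for H3 and 22.9% for H2A. Among the 24 tested members with at least 50% of their own, 21 had a log2 fold change below 0 and 3 above (17 below scaled to total counts), with a median of -0.37 (-0.19 scaled to total counts). Both HET libraries lay below both WT libraries for 7 of the 24 and above for 1, against 15.9% and 19.6% of all genes. Scaled to total counts, they lay below for 2 and above for 3, against 8.82% and 28.1% of all genes. On that scale the part that lay below was near the share of all genes. Values of members with less sequence of their own are uncertain. Also, 2 H2A rows annotated as pseudogenes were outside the rule but held many counts. Hist1h2aj had 16834, 18342, 13837 and 13774 counts, more than any member, and shares 93.5% of its 31-base stretches with Hist1h2ai. Hist1h2al had 3449, 6095, 6932 and 5072. With these rows added, the log2 ratio of the H2A sum was -0.17 in place of 0.01.

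A list of 38 genes of S phase and DNA replication summed to 3851, 4033, 2971 and 3526 CPM, with both HET libraries below both WT libraries and HET 1 lowest, as for the histone sum. Scaled to total counts, the genotypes overlapped in both sums, at 3697, 3715, 3152 and 3758 for the list and 4702, 4430, 3970 and 4822 for the histone genes. Per 100 counts of that list there were 127, 119, 126 and 128 histone counts, and on this scale the genotypes overlapped. H2A stood at 23.9 and 27.0 counts per 100 in WT and 31.3 and 31.1 in HET, whereas H2B stood at 25.9, 28.5, 27.3 and 24.0. In the list, which also holds Slbp, 0 genes passed the test. The log2 fold change was below 0 for 31 of 38 genes (27 scaled to total counts), with a median of -0.28. At an unadjusted p under 0.05 there was 1 gene, lower in HET, against 1.83% of all genes that were lower at this threshold. That gene was Uhrf1, which maintains DNA methylation behind the replication fork, at 297, 280, 170 and 165 CPM (-0.78 ± 0.28, unadjusted p = 0.0319, edgeR adjusted p = 0.986). Dbf4, the activator of the replication kinase Cdc7, stood at 55.8, 68.1, 40.4 and 41.3 CPM.

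**Figure D4:**
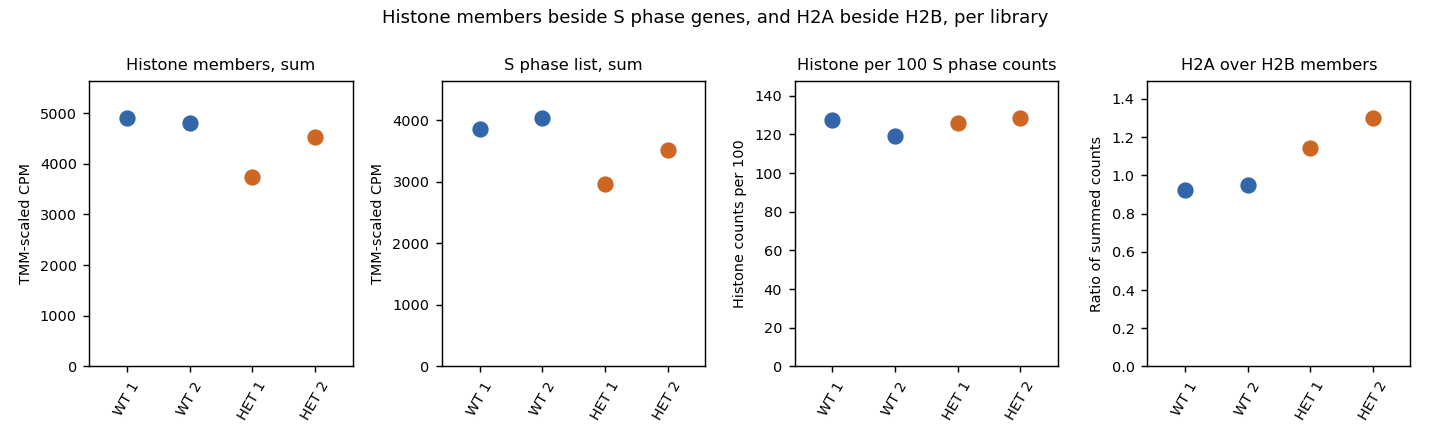
From left to right, the summed level of the 65 members, the summed level of 38 S phase genes (both TMM-scaled CPM), histone counts per 100 counts of the S phase genes, and the ratio of summed H2A to summed H2B counts, with 1 point per library and axes from 0. The third panel lies between 119 and 128 in all libraries, whereas the ratio in the fourth is 0.923 and 0.948 in WT and 1.14 and 1.30 in HET.

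Genes that make and end histone transcripts showed no call. Of 19 tested genes for the transcription and 3' end processing of histone messenger RNA, 0 passed, 13 had a log2 fold change below 0 and 6 above, and the median was -0.19 (10 below 0 and a median of -0.0077 scaled to total counts). Slbp, the stem-loop binding protein, stood at 109, 269.6, 166 and 129 CPM (-0.36 ± 0.47), highest in the library labelled WT 2. Npat, the co-activator of histone gene transcription, stood at 48.9, 57.3, 49.4 and 36.4 CPM, and Casp8ap2, a component of histone locus bodies, at 93.0, 135, 98.3 and 89.5 CPM. None of these 3 genes separated the genotypes. Cpsf2, a subunit of the cleavage complex, stood at 68.0, 42.9, 33.2 and 35.8 CPM (-0.68 ± 0.33, unadjusted p = 0.0869). Lsm10, a protein of the U7 particle, stood at 3.80, 3.90, 1.81 and 2.59 CPM, and Zfp473, which binds that particle, at 6.495, 2.13, 7.43 and 7.91 CPM.

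Histone chaperones, which escort new histones to DNA, also held 0 calls among 21 tested genes. The log2 fold change was below 0 for 17 and above for 4, with a median of -0.25 (13 below 0 and a median of -0.058 scaled to total counts). Rbbp4, a histone-binding subunit of chromatin assembly factor 1, stood at 154, 173, 109.9 and 97.8 CPM (-0.66 ± 0.28, unadjusted p = 0.0579). Chaf1a, the large subunit of the same factor, stood at 172, 206, 143 and 121 CPM (-0.52 ± 0.29), and Nasp, a chaperone of H3 and H4, at 184, 255, 149 and 168 CPM. In each of these 3 genes both HET libraries lay below both WT libraries.

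A list of histone genes outside the clusters held mainly replication-independent variants, whose transcripts are polyadenylated. Of 11 tested genes 6 had a log2 fold change above 0 and 5 below (2 scaled to total counts), with a median of 0.018, and 0 passed. H3f3b, which encodes H3.3, stood at 627, 825, 584 and 787 CPM, and H2afx, which encodes the H2A.X of DNA damage signalling and whose transcript can also end at a stem-loop, at 74.0, 119.8, 89.9 and 138 CPM. Both overlapped between genotypes. H1fx, a linker histone outside the clusters, stood at 39.1, 34.5, 46.7 and 62.6 CPM (0.57 ± 0.30, unadjusted p = 0.108). H1f0 stood at 384, 219.8, 238 and 269 CPM, and H2afy, which encodes macroH2A, at 107, 98.0, 82.4 and 94.4 CPM. The difference between these genes and the clustered ones was not tested.

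RNA genes whose products lack a poly(A) tail, mainly transcribed by RNA polymerase III or encoding small nuclear RNAs, were compared as well, and their part in the histone values was not tested. Their sum was 20985, 37996, 26090 and 18991 CPM, so the genotypes overlapped. Most of it came from Rn7sk, Rn7s1 and Rn7s2, so the sum says little about the other genes. The values of Rn7s1 (7205, 11874, 9637 and 6306 CPM) and Rn7s2 were nearly the same. Of 14 tested genes, 12 had a log2 fold change below 0 and 2 above, with a median of -1.44 (12 below 0 and a median of -1.25 scaled to total counts). Both HET libraries lay below both WT libraries for 9 of these genes and above for 1, against 15.9% and 19.6% of all genes. At an unadjusted p under 0.05 there were 9, all lower, against 1.83% of all genes that were lower at this threshold. The adjusted threshold was passed by 0. Rny3, which encodes a Y RNA, stood at 9.03, 26.8, 2.00 and 1.48 CPM (-3.36 ± 0.67, edgeR adjusted p = 0.986), Rny1 at 3.64, 6.03, 0.582 and 0.591 CPM and Rnu1a1, a U1 small nuclear RNA gene, at 42.2, 59.997, 16.8 and 16.3 CPM. In these 3 genes the groups were far apart. Rn7sk, the abundant 7SK RNA, stood at 5509, 12381, 6168 and 5803 CPM, high in the library labelled WT 2 alone. The lowest class median among the histone genes was -0.59.

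Markers of other cell types also differed between libraries, and their part in the histone values was not tested. The 10 fibroblast markers all had log2 fold changes below 0, with sums of 7612, 23530, 4615 and 5706 CPM, and the 10 pan-leukocyte markers summed to 341, 144, 426 and 338 CPM. In the library labelled WT 2 most of that sum came from 1 gene, Cytip, at 18.6, 120, 69.9 and 23.1 CPM. Ptprc, which encodes CD45, stood at 61.9, 2.84, 73.1 and 65.8 CPM, low in that library alone. The 9 endothelial markers summed to 384, 72.9, 337 and 551 CPM, and Cldn5 was at 0 counts in the library labelled WT 2. Sums of 10 T and NK cell markers were 24.9, 10.9, 54.2 and 65.2 CPM, with Nkg7 at 0 in the library labelled WT 2 and in HET 2, and those of 7 B and plasma cell markers were 9.27, 1.28, 16.2 and 51.5 CPM. In the library labelled WT 2, Cd79b, Ighm and Mzb1 were at 0, as were Cd79a in WT 1 and Cd79b in HET 1. The 7 erythroid markers found summed to 6.57, 2.06, 6.14 and 16.03 CPM, and the haemoglobin gene Hba-a2 was at 0 in the library labelled WT 2 and in HET 2, as was Hbb-bs in the former. The library labelled WT 2 thus had the lowest leukocyte and the highest fibroblast sum.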

How the data were processed

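RNA from 4 sorted C3-T+ mouse mammary tumours, 2 WT and 2 HET for Elf5, was sequenced. Values are the estimated counts of each gene as deposited by the authors. Per the submitters' processing notes they used Salmon, which assigns reads to transcripts, with GRCm38.p5. Its version, the annotation and the strand setting were not given in the sources used here. Of 51826 identifiers, 51633 matched GENCODE M21, which gave symbols and coordinates. No row lacked a gene name (0 rows) and no column belonged to other samples (0 columns).

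Counts were rounded to whole numbers and the genotypes were compared with edgeR 4.0.16 under R 4.3.3, using filterByExpr, TMM factors of 0.96, 0.921, 1.06 and 1.07, the quasi-likelihood F test and Benjamini-Hochberg adjustment over 21607 genes. The spread between libraries (common biological coefficient of variation) was 0.46. Residual degrees of freedom were 2 and prior ones 4.08. The steps were tested on simulated data. Groups came from genotype labels and titles. A count of 0 allows up to 3 counts, or 0.196 to 0.236 CPM, and intervals cover counting error only. Sums over members are scaled counts without a test.

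Named members were the 4 of each class with the highest level per kb, the 5 of smallest p per direction, the Hist3, Hist4 and germ cell members, with 3 genes per further list and Slbp, Npat, Casp8ap2, H2afx, H3f3b and Rn7sk. Other members were named after their values were seen. Some genes of the lists are not reported here by name. The members and all lists were chosen with earlier results of these data known. Alternatives used relative log expression, upper-quartile and total-count scaling, other filters, DESeq2 1.42.0, limma-voom (limma 3.58.1) and leaving out each library. Promoters and stem-loops were searched in RefSeq promoters (GRCm38.p6) and annotated transcripts.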

Additional observations from a re-analysis of the deposited data

How the results depend on the processing

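No paired analysis was possible because the titles of the WT and HET libraries share fewer than 2 replicate numbers. The adjusted edgeR test called 0 genes with all other scalings, with limma-voom, with a filter of 1 CPM in 2 libraries, with protein-coding genes alone and with identical proteins summed. It called 324 genes with no filter beyond 1 count and 0 to 651 when a library was left out (651 without WT 1, 9 without the library labelled WT 2). DESeq2 called 134. Members called were 0 throughout, except for 1, Hist2h2aa2, with no filter (log2 fold change -1.90). Members with a log2 fold change above 0 numbered 8 to 22 without single libraries and 14 to 22 elsewhere, and the members' median minus that of all genes lay between -0.58 and -0.21 in each setting where both were computed.

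The log2 ratio of the family sum was -0.055 with total counts and -0.076 with library sizes that leave out mitochondrial and small RNA genes. The same 2 scalings gave -0.19 and -0.21 for H2B and -0.17 and -0.19 for H3. Total counts gave 0.018 for H1 and 0.19 for H2A. Relative log expression factors gave -0.039 for H2A. Without single libraries the ratio ranged from -0.44 to -0.16 for the family, from -0.40 to -0.051 for H1, from -0.18 to 0.14 for H2A, from -0.47 to -0.27 for H2B, from -0.51 to -0.29 for H3 and from -0.87 to -0.26 for H4. Alternatives chosen after seeing the data gave -0.17 for H2A with the pseudogene rows and -0.69 for H2B from members with at least 50% of their own 31-base stretches.

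Of 372 log2 fold changes of named members under alternatives, 341 kept their direction and side of the threshold and 30 changed sign. With total counts the value was 0.024 for Hist1h1c, 0.090 for Hist1h1e, 0.0094 for Hist1h2ak, 0.027 for Hist1h2bg, 0.12 for Hist1h3h, 0.12 for Hist3h2a and 0.050 for Hist4h4. With library sizes that leave out mitochondrial and small RNA genes it was 0.0027 for Hist1h1c, 0.069 for Hist1h1e, 0.0068 for Hist1h2bg, 0.097 for Hist1h3h, 0.0998 for Hist3h2a and 0.027 for Hist4h4. Upper-quartile factors gave 0.018 for Hist1h3h and 0.024 for Hist3h2a. Without single libraries the ranges that crossed 0 were -0.64 to 0.072 for Hist1h1b, -0.39 to 0.067 for Hist1h1e, -4.19 to 0.52 for Hist1h2aa, -0.0998 to 0.91 for Hist1h2ai, -0.55 to 0.037 for Hist1h2ak, -0.48 to 0.0072 for Hist1h2bg, -0.079 to 0.68 for Hist1h2bn, -0.72 to 0.34 for Hist1h3h, -0.29 to 0.048 for Hist3h2a, -1.42 to 0.12 for Hist3h2ba and -1.02 to 0.46 for Hist4h4. The cause was not tested. Where a library was left out, the lone one was assumed to vary like the other genotype. With 2 libraries per genotype and a coefficient of variation of 0.46, small differences could not be told apart from the spread between libraries.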
